A study of Mus musculus with 26 samples.

Results

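Small leucine-rich proteoglycans are secreted matrix proteins with a core of leucine-rich repeats, most of which carry chondroitin, dermatan or keratan sulfate chains. They bind fibrillar collagens and set the spacing and width of the fibrils, and several of them also hold TGF-beta in the matrix or signal through receptors of the cell surface. In the heart they are made mainly by fibroblasts, and biglycan and lumican are known to accumulate in fibrotic and pressure-loaded myocardium. The 8 genes described here were chosen by symbol, with earlier results of these data known. They are decorin (Dcn), biglycan (Bgn) and asporin (Aspn) of class I, lumican (Lum), fibromodulin (Fmod) and prolargin (Prelp) of class II, osteoglycin (Ogn) of class III, and podocan (Podn). They are 8 of 56941 genes listed and 8 of 15357 genes abundant enough to be tested. All 8 passed the filter on low counts.

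RNA was sequenced from left ventricle of 26 mice, 1 library per mouse. The 6 male and 6 female controls (Ctrl) were homozygous for the floxed Ppp2r2a allele without Cre (aMHC-Cre0/0-Ppp2r2aL/L). The 7 male and 7 female knockouts (cKO) carried the same floxed alleles and the aMHC-Cre transgene (aMHC-CreTg/0-Ppp2r2aL/L), which is driven by a cardiomyocyte promoter. Ppp2r2a encodes B55α, which directs the phosphatase PP2A to its substrates. All mice, controls included, had received saline for 2 weeks from an osmotic minipump and were 12 to 16 weeks old. The floxed line was made on C57BL6/N and the Cre line on FVB, so Cre-positive mice can carry FVB sequence that controls lack. Mice with Cre and wild-type Ppp2r2a were not analysed here. The comparisons are the genotype difference in each sex, the difference between these, their mean over both sexes, and the sex difference in each genotype.

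Libraries held 14403102 to 30867399 counts. Ppp2r2a transcripts in cKO mice lay below those of every control of the same sex, and Xist and Ddx3y matched the labelled sex in all 26 mice. Ctrl males 3 and 6 were the lowest controls for Ppp2r2a (24.9 and 24.1 CPM, counts scaled to the size of the library), and the results below were also computed without them. Of 15 fibroblast markers, among them Pdgfra and Tcf21, all were abundant enough to be tested. The tissue is bulk ventricle, so fewer fibroblasts and less RNA per fibroblast cannot be told apart, and the cell that made a transcript was not observed.

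The genes lie in clusters. By GENCODE M21, Dcn and Lum are next to each other on chromosome 10 and are followed by Kera and Epyc. Aspn and Ogn lie on chromosome 13 with Omd between them and Ecm2 before them. Prelp and Fmod are neighbours on chromosome 1, beside Optc. Bgn lies on the X chromosome and Podn on chromosome 4. Promoter sequence from RefSeq (GRCm38.p6, the build of that table; the submitters' processing notes name GRCm39) was found for 6 of the 8 genes, and not for Dcn and Lum. Bgn and Aspn are shown because their genotype differences in males were the largest among members with more than 1 CPM, Ogn because it is a cluster neighbour of Aspn with fold changes near 0, and Podn because it differed most between the sexes. Each stretch is the 250 bases before the annotated start, 5′ to 3′ on the gene's strand. Capitals mark matches, on either strand, of TATAAA (the TATA box), TGANTCA (the AP-1 site), CAGAC (the SMAD box) or CACCTG (an E-box).

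Bgn, chrX:73483351-73483600, plus strand: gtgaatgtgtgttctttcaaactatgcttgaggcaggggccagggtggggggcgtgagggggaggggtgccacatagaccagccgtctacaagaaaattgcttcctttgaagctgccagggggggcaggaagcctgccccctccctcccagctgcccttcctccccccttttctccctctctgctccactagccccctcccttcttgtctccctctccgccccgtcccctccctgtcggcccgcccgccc

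Aspn, chr13:49544193-49544442, plus strand: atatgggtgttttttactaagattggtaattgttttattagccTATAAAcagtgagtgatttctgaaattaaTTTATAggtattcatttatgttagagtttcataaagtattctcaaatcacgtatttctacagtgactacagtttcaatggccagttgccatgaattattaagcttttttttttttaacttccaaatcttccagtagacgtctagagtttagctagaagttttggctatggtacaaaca

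Ogn, chr13:49607765-49608014, plus strand: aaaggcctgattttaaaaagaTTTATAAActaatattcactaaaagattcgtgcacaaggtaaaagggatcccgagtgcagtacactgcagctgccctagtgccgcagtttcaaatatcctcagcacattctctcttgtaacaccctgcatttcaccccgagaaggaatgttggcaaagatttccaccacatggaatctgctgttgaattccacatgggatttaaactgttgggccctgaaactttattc

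Podn, chr4:108031955-108032204, minus strand, the first of 2 annotated starts: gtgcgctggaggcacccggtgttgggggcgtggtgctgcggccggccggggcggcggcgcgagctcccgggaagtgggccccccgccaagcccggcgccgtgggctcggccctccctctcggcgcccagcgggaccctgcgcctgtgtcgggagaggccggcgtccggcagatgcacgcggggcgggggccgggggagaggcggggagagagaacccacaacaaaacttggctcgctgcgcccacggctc

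These promoters differ widely in composition. G and C made up 64.4% of the Bgn stretch, 30.0% of Aspn, 42.0% of Ogn and 78.0% of Podn, against a median of 52.4% over 32851 promoter stretches in the table. Aspn and Ogn each held TATAAA 2 times, counting both strands, and the 2 matches in Ogn overlap. In both genes every match lay nearer to the far end of the stretch than to the annotated start. Whether any of them acts as a TATA box was not tested. TATAAA was present in 12.4% of all stretches, TGANTCA in 6.75%, CAGAC in 42.2% and CACCTG in 17.2%. The stretches of Bgn and of the first Podn start held none of the 4 motifs, and the second Podn start held CACCTG 2 times. Fmod held CAGAC 2 times and Prelp held it 1 time.

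The family was dominated by 2 members. Levels between genes were compared as CPM per kilobase of the principal transcript (APPRIS, GENCODE M21). On this scale Dcn, the collagen-binding proteoglycan with 1 glycosaminoglycan chain site, was at 281.4 ± 39.4 (SD, n = 26 mice). Bgn, its nearest relative, was at 132.3 ± 24.8 (SD, n = 26). Together they made up most of the family, with mean shares of 55.6% for Dcn and 26.1% for Bgn of the summed level per length. Ogn followed at 35.0 ± 3.75, Lum at 26.05 ± 5.08, Prelp at 14.4 ± 2.19, Aspn at 10.6 ± 2.72 and Podn at 5.91 ± 1.81 (CPM per kilobase, SD, n = 26 each). Fmod, a relative of lumican abundant in tendon, was at 0.145 ± 0.0729 (SD, n = 26). Neighbours in this order kept it in all 26 mice, except Prelp over Aspn and Aspn over Podn, which held in 25 of 26 each. The order without division by length was the same. With the longest annotated transcript, which is 4.69 kb for Dcn in place of 1.76 kb, Bgn (120.0) ranked above Dcn (105.4), so the order of these 2 depends on the transcript taken.

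**Figure D1:**
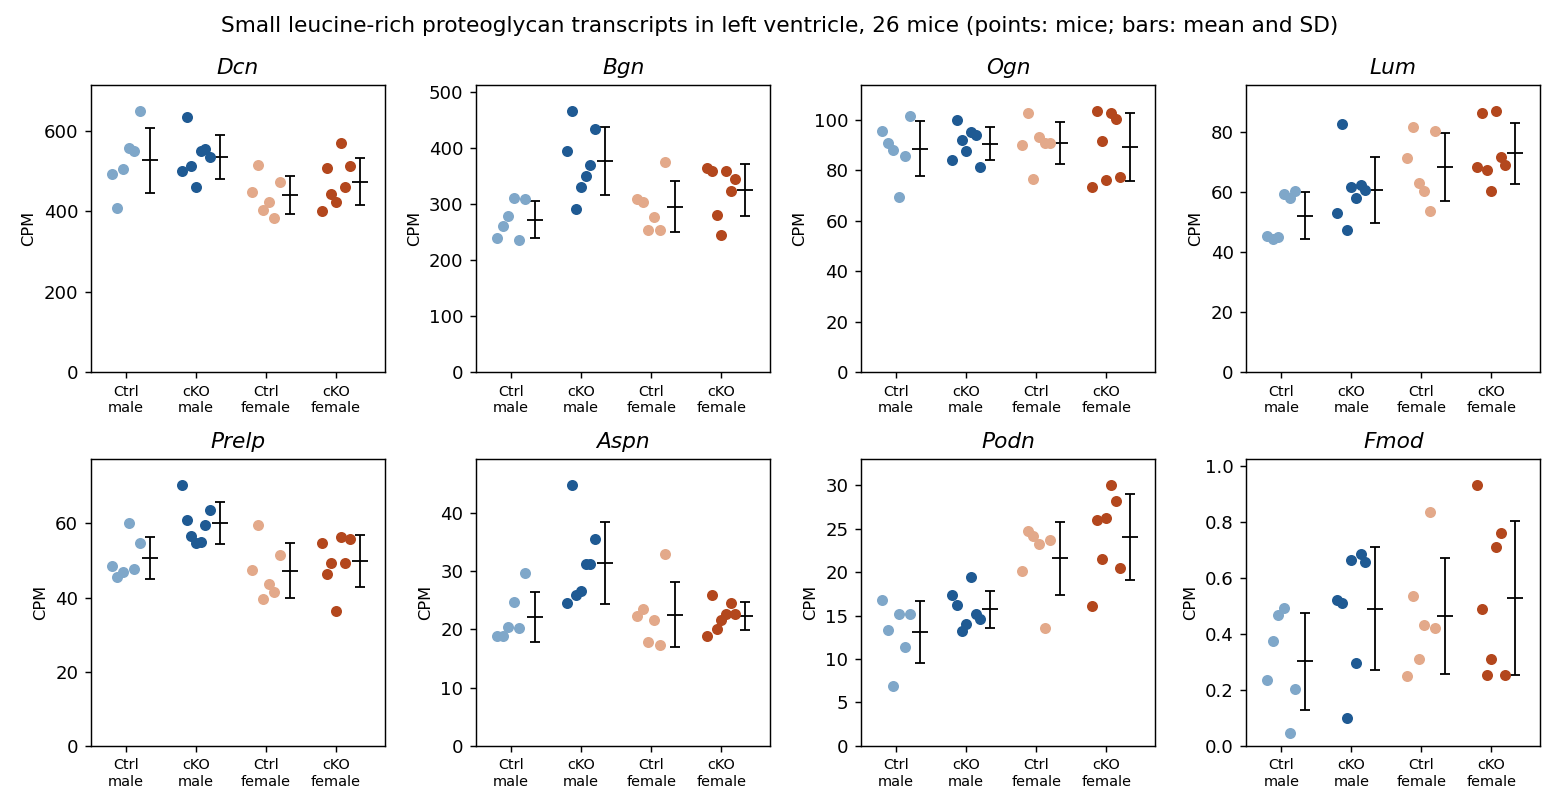
Transcript level of the 8 genes in each mouse, in CPM from 0 upward on a scale of its own per gene, in Ctrl males (n = 6), cKO males (n = 7), Ctrl females (n = 6) and cKO females (n = 7). Points are mice and bars are mean and SD. In males, 6 of 7 cKO mice lie above every Ctrl mouse for Bgn and 4 of 7 for Aspn, Lum and Podn are higher in females, and Ogn is level across the groups.

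Bgn was the member with the clearest genotype difference. In Ctrl males it ranged from 236 to 310.2 CPM with a median of 269, and in cKO males from 291 to 466 CPM with a median of 371. The 2 groups overlapped in 1 mouse: 6 of 7 cKO males lay above the highest control, and cKO male 3 (291 CPM) did not. In females it ranged from 254 to 375 CPM in Ctrl (median 290.1) and from 245 to 364 CPM in cKO (median 345), and the groups overlapped throughout. The log2 fold change was 0.47 in males (SE 0.11, edgeR adjusted p = 0.0505), just outside the threshold of 0.05, and 0.14 in females (SE 0.11, edgeR adjusted p = 0.975). Averaged over both sexes, Bgn rose in cKO by 0.30 on the log2 scale (SE 0.08, edgeR adjusted p = 0.0471), and 12 of 14 cKO mice lay above the control mean of their sex. It was 1 of 8 members called in this comparison, in which 1.33% of all genes tested were called (0.469% as higher).

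This call is at the edge of the threshold. It was kept when Ctrl male 4 or 6, cKO male 3 or 4, Ctrl female 6, or cKO female 3 or 4 was left out, and was lost without any 1 of the other 19 mice, with edgeR adjusted p values from 0.0526 to 0.0912. It was also lost with no filter on low counts (edgeR adjusted p = 0.123). The fold change ranged from 0.27 to 0.34 on the log2 scale without each mouse. In males, Bgn passed the threshold without Ctrl male 6, cKO male 3, Ctrl female 6, cKO female 2 or cKO female 4 (edgeR adjusted p from 0.0335 to 0.0460), and with DESeq2 (adjusted p = 0.00350) and limma voom (adjusted p = 0.0374).

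Aspn, the class I member that lacks a glycosaminoglycan site and can bind TGF-beta, was also high in cKO males. It was at 18.8 to 29.7 CPM in Ctrl males (median 20.3) and at 24.5 to 44.8 CPM in cKO males (median 31.1). All 7 cKO males lay above the control mean and 4 above the highest control, which was Ctrl male 6. In females it was at 17.2 to 32.9 CPM in Ctrl (median 21.9) and at 18.9 to 25.96 CPM in cKO (median 22.7), with the cKO mice inside the range of the controls. The log2 fold change was 0.51 in males (SE 0.14, edgeR adjusted p = 0.0953) and -0.01 in females (SE 0.15, interval -0.31 to 0.29). Neither passed, while DESeq2 (adjusted p = 0.0187) and limma voom (adjusted p = 0.0499) called the male difference.

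Prelp, which links collagen to basement membranes, was the third member whose male difference had an unadjusted p under 0.05. It was at 45.6 to 60.1 CPM in Ctrl males (median 48.2) and at 54.7 to 70.4 CPM in cKO males (median 59.6). All 7 cKO males exceeded the control mean, and 3 exceeded the highest control. The log2 fold change was 0.25 in males (SE 0.10, edgeR adjusted p = 0.236) and 0.08 in females (SE 0.10, edgeR adjusted p = 0.982).

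Dcn and Ogn had the smallest genotype differences among the members in males. The male log2 fold change of Dcn was 0.02, with a 95% confidence interval from -0.16 to 0.21, and the female one was 0.10 (-0.08 to 0.29). For Ogn these were 0.03 (-0.15 to 0.21) and -0.02 (-0.20 to 0.16). The sign of Dcn in males turned under a fit corrected for length and GC content of transcripts (-0.07), and so did that of Ogn (-0.01).

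Over the 8 members, 0 passed in males by edgeR (0.443% of all genes did) and 0 in females (0.0326% of all genes, 0.026% as higher and 0.00651% as lower). At an unadjusted p under 0.05 there were 3 in males (Bgn, Aspn and Prelp, all higher), against 13.2% of all genes, and 0 in females, against 5.15%. The DESeq2 test and limma voom each called 2 in males (Bgn and Aspn), where they called 2.6% and 1.37% of all genes, and 0 in females, where they called 0.0586% and 0.026%. The median log2 fold change of the members was 0.25 in males and 0.10 in females, against 0.00 over all genes in each. All 8 fold changes were above 0 in males, where 50.3% of all genes were, and 6 of 8 in females, where 51.1% were. The male values of Lum, Podn and Fmod were 0.22 (SE 0.12), 0.26 (SE 0.17) and 0.64 (SE 0.41). Fmod had 1 to 19 counts per library, and Ctrl male 5 (1 count) and cKO male 3 (2 counts) lay below the 3 counts taken as the limit of detection, and its interval from -0.19 to 1.47 includes 0, so a difference was not detectable at this depth.

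**Figure D2:**
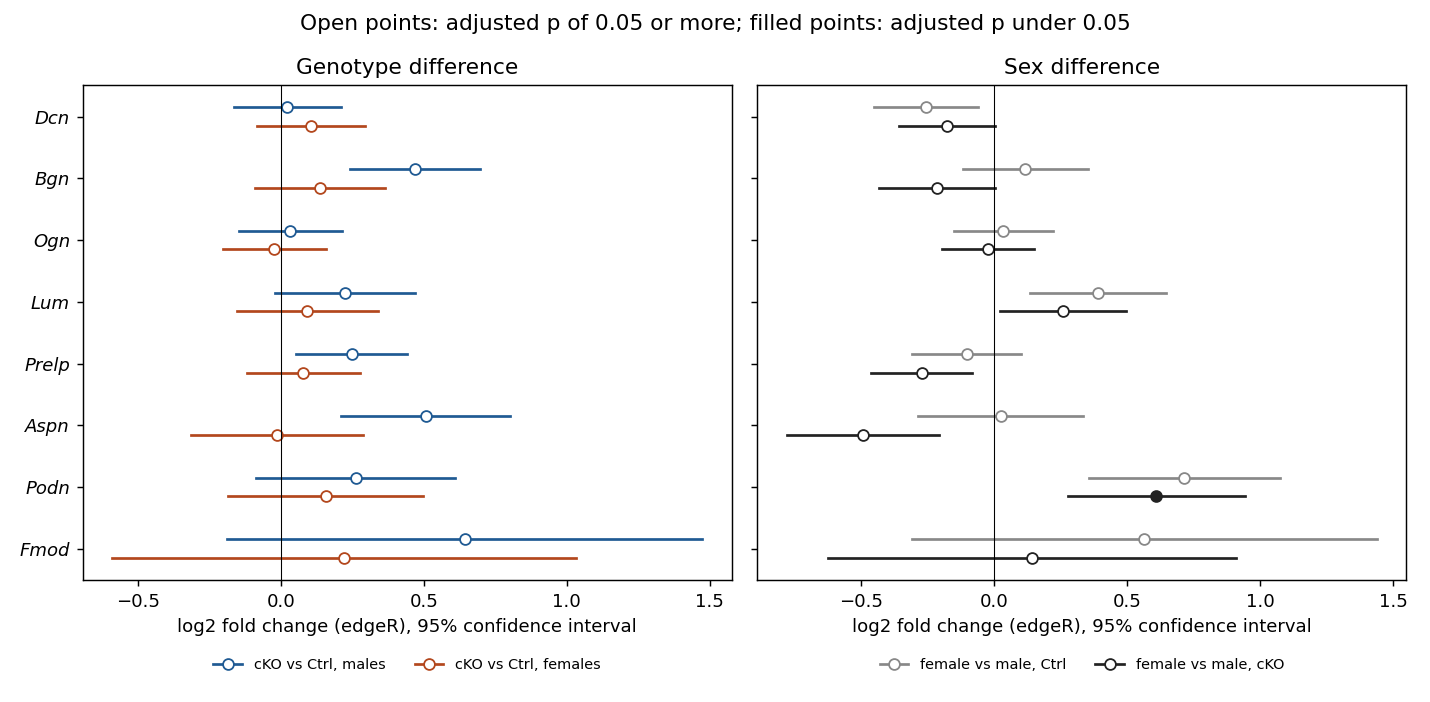
Log2 fold change of each gene with its 95% confidence interval from the fit to all 26 mice, for the genotype difference in males and females (left) and the sex difference in Ctrl and cKO mice (right). The filled point, Podn in cKO mice, is the 1 value of the 32 shown with an adjusted p under 0.05, and Fmod has the widest intervals.

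Whether the genotype effect differed by sex was tested as an interaction. No member passed, and 0 of 15357 genes did by edgeR, by DESeq2 or by limma voom (3.96% of all genes had an unadjusted p under 0.05 by edgeR). For Aspn the female effect was smaller than the male one by 0.52 on the log2 scale (interval -0.94 to -0.10, edgeR adjusted p = 0.999). For Bgn the difference was -0.33 (interval -0.65 to -0.01, edgeR adjusted p = 0.999). These were the 2 members with an unadjusted p under 0.05. For Dcn the difference was 0.08 (interval -0.18 to 0.35) and for Ogn -0.06 (interval -0.31 to 0.20). A sex dependence of the genotype effect was therefore not shown for any member.

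The sex difference was clearest for Podn, a proteoglycan of vessel walls and matrix that is known to restrain smooth muscle growth. It was at 6.92 to 16.8 CPM in Ctrl males (median 14.2) and at 13.6 to 24.8 CPM in Ctrl females (median 23.4). Of the 6 Ctrl females, 5 lay above every Ctrl male, and female 5 (13.6 CPM) did not. In cKO mice it was at 13.2 to 19.4 CPM in males (median 15.2) and at 16.1 to 30.1 CPM in females (median 25.96), and 6 of 7 females lay above every male. Podn was higher in cKO females than in cKO males by 0.61 on the log2 scale (SE 0.16, edgeR adjusted p = 0.0389), the 1 member called there, with 2.7% of all genes called (1.43% as higher and 1.27% as lower). At an unadjusted p under 0.05 there were 4 members, Podn, Lum, Aspn and Prelp, against 17.3% of all genes. In Ctrl mice the difference was 0.71 (SE 0.17, edgeR adjusted p = 0.0537), with 0 members and 0.638% of all genes called. There 3 members had an unadjusted p under 0.05 (edgeR), Podn, Lum and Dcn, against 12.1% of all genes.

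The call in cKO mice was lost without any 1 of cKO males 1, 2, 3, 4, 6 and 7 or cKO females 2, 4, 5 and 6 (edgeR adjusted p from 0.0590 to 0.0833), and with no filter on low counts (edgeR adjusted p = 0.105). The Ctrl difference passed without Ctrl male 1, Ctrl female 5 or cKO female 1 (edgeR adjusted p from 0.0159 to 0.0354). In GENCODE M21 the gene model of Podn overlaps that of Scp2 on the same strand, an abundant gene for a peroxisomal lipid transfer protein, so reads of the shared stretch could have been dropped or assigned to either, and the Podn level is uncertain for that reason. Scp2 differed between the sexes by -0.06 in Ctrl mice (SE 0.05) and -0.01 in cKO mice (SE 0.04) on the log2 scale.

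Because the sign was the same in both genotypes for several members, the mean sex effect over both genotypes was added to the fit after these values had been seen. It uses the same mice as the sex differences above and is not a separate observation. In this contrast 3 of 8 members passed, where 7.71% of all genes did (4.02% as higher and 3.69% as lower in females). Podn was higher in females by 0.66 (SE 0.12, edgeR adjusted p = 0.00126). Lum was higher in females by 0.33 (SE 0.08, edgeR adjusted p = 0.0179). Dcn was lower in females by this test, at -0.22 on the log2 scale (SE 0.06, edgeR adjusted p = 0.0388). The calls of Podn and Lum were kept whichever of the 26 mice was left out, but Lum lost its call with no filter on low counts (edgeR adjusted p = 0.0551), as did Dcn (edgeR adjusted p = 0.0699). That of Dcn was kept without Ctrl males 1 and 2, cKO males 1, 3 and 4, Ctrl females 2 and 6, and cKO females 2, 5 and 7, each left out alone, and lost without any 1 of the other 16 mice (edgeR adjusted p from 0.0506 to 0.0731). Dcn also lost its call when length and GC content of transcripts were corrected for, where the value was -0.14 (edgeR adjusted p = 0.170), and without Ctrl males 3 and 6 (-0.18, edgeR adjusted p = 0.113).

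Lum and Dcn, neighbours on chromosome 10, thus had mean sex effects in opposite directions. Within a genotype neither was called. The edgeR adjusted p for Lum was 0.159 in Ctrl and 0.232 in cKO mice, and for Dcn 0.243 and 0.307. Lum was at 44.5 to 60.4 CPM in Ctrl males (median 51.5) and at 53.5 to 81.5 CPM in Ctrl females (median 67.2). Dcn was at 407 to 649 CPM in Ctrl males (median 526) and at 384 to 514 CPM in Ctrl females (median 435). Each gene alone overlapped between the sexes. The ratio of the 2 genes within a library does not depend on the scaling of libraries. Lum as a percentage of Dcn (in CPM) was 8.96% to 10.9% in Ctrl males and 9.23% to 13.3% in cKO males. It was 13.9% to 17.0% in Ctrl females and 13.5% to 17.1% in cKO females. The highest of the 13 males lay below the lowest of the 13 females, so the ratio separated the sexes in all 26 mice. This was 1 of 5 ratios of members computed after the values were seen, and it is given with no test. Podn as a percentage of Dcn overlapped narrowly, with the highest male (cKO) at 3.541% and the lowest female (Ctrl) at 3.537%. The ratios of Bgn to Dcn, Aspn to Ogn and Bgn to Ogn overlapped between the sexes. The share of all pairs of genes that separate the sexes was not computed. The separation is therefore not shown to be particular to Lum and Dcn.

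**Figure D3:**
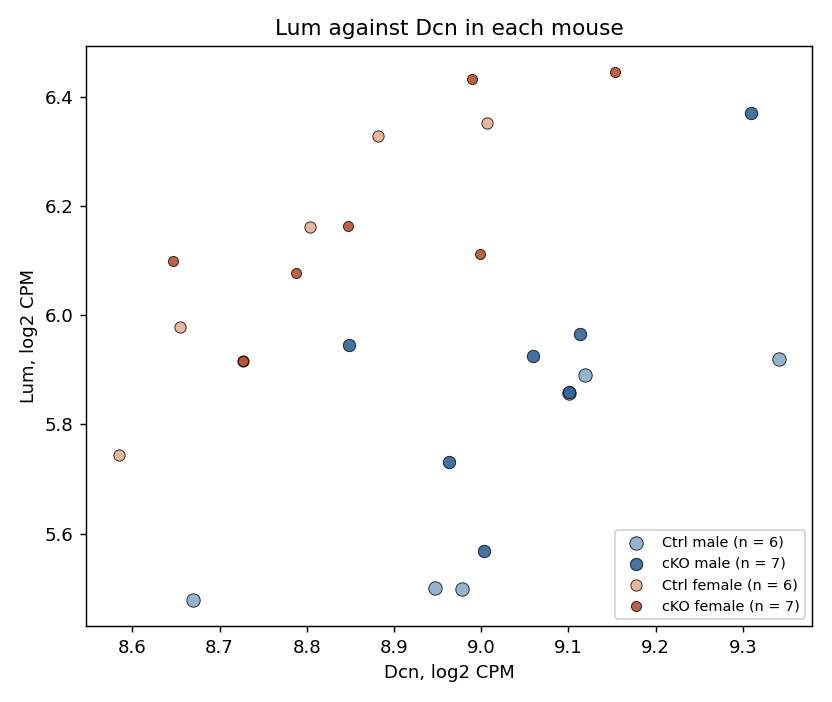
Lum against Dcn in each of 26 mice, both in log2 CPM. Females lie above males at the same Dcn level in both genotypes, and within each sex the 2 genes go up and down together; in each sex 1 Ctrl and 1 cKO mouse lie at nearly the same point.

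In cKO mice Aspn and Prelp were at lower values in females. Aspn differed by -0.49 (SE 0.14, edgeR adjusted p = 0.0532), with 5 of 7 cKO females below the lowest cKO male. Prelp differed by -0.27 (SE 0.09, edgeR adjusted p = 0.106), with 4 of 7 below the lowest male. For Aspn the difference passed without Ctrl male 6, cKO male 3, Ctrl female 5 or Ctrl female 6 (edgeR adjusted p from 0.0308 to 0.0476), and in DESeq2 (adjusted p = 0.0169) and limma voom (adjusted p = 0.0349). In Ctrl mice the sex differences were 0.03 for Aspn (SE 0.15) and -0.10 for Prelp (SE 0.10). Bgn, although X-linked, differed by 0.12 between the sexes in Ctrl mice (interval -0.12 to 0.35) and by -0.21 in cKO mice (interval -0.43 to 0.00). The sex comparisons share their groups with the genotype comparisons, so the high values of cKO males enter both.

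Mice of a group varied together in part of the family. After subtraction of the group means, 9 of 28 pairs of members were correlated at a Benjamini-Hochberg adjusted p under 0.05, by Pearson's r and by Spearman's rho (permutation within groups, n = 26). Dcn and Lum had the highest value (r = 0.78, rho = 0.80, permutation p = 2e-05 and 3e-05, adjusted p = 0.00028 each), and r was 0.79 without the 2 mice farthest from the median of Dcn. Within the groups their r was 0.83 in Ctrl males, 0.68 in cKO males, 0.94 in Ctrl females and 0.78 in cKO females. Lum and Aspn (r = 0.78, rho = 0.77, r = 0.71 without 2 mice) and Dcn and Aspn (r = 0.74, rho = 0.83, r = 0.70 without 2 mice) followed. Bgn and Aspn had r = 0.71 (rho = 0.71, r = 0.77 without 2 mice), but this was 0.23 within cKO females. The 9 pairs were the 6 among Dcn, Lum, Bgn and Aspn and the 3 of Prelp with Dcn, Lum and Bgn. Within cKO males, r was 0.093 for Dcn and Prelp and -0.00056 for Lum and Prelp. The pair Dcn and Prelp had r = 0.54 with all mice (rho = 0.57) and 0.52 without 2, a value of about the same size that was no longer past the threshold (permutation, adjusted p = 0.0590). No pair with Ogn, Podn or Fmod passed. The share of all pairs of genes tested that would pass was not computed, and libraries share depth and composition. The count is therefore not shown to be particular to the family. Tifab, outside the family, had a higher r with Dcn (0.81) than Lum did.

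**Figure D4:**
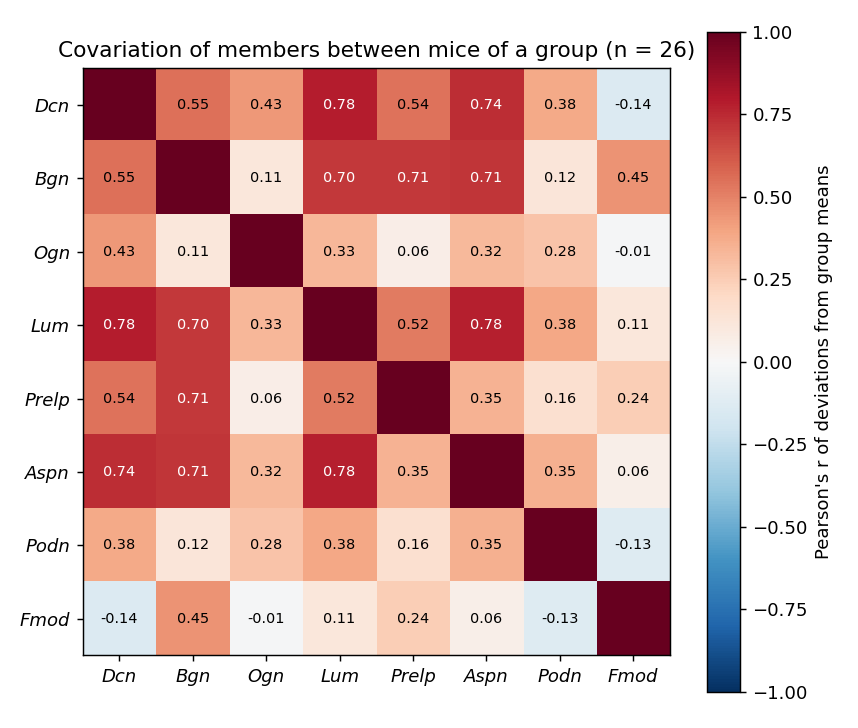
Pearson's r between the 8 genes over 26 mice, computed on deviations of log2 CPM from the group means, on a colour scale from -1 to 1. The pairs among Dcn, Lum, Bgn and Aspn have r from 0.55 to 0.78, and pairs with Ogn, Podn or Fmod are at most 0.45.

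The genes most alike to each member among all genes tested, by Pearson's r of these deviations over 26 mice, differed from member to member. They are named by rank with no test, and libraries share depth and composition. For Bgn they were Col1a2 (r = 0.89), Adamts2 (0.88) and Mfap4 (0.88), a fibrillar collagen chain, the protease that trims procollagen and a microfibril protein. For Prelp they were Itga11 (0.87), Loxl1 (0.81) and Tnxb (0.79), a collagen-binding integrin, an elastin cross-linking enzyme and a tenascin. For Dcn they were Tifab (0.81), F13a1 (0.79) and Srgn (0.79), and for Lum Rab7b (0.79), Lpar1 (0.78) and Anxa1 (0.78). F13a1 is also in the list of macrophage markers. For Ogn they were Zfp946 (0.89), Lnpk (0.85) and Lgalsl (0.84), and for Aspn Ackr4 (0.82), Selenof (0.82) and Cacng7 (0.80). Podn was most like Gbgt1 (0.74), Msto1 (0.73) and Per2 (0.72), and Fmod most like Cep76 (0.69), Eif3a (0.67) and Col8a2 (0.66), lower values than for the other members.

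Of the 15 fibroblast markers, 0 passed in any of the genotype and sex comparisons within a sex or genotype. Over all genes, 0.443% passed for genotype in males and 0.0326% in females, and 0.638% for sex in Ctrl and 2.7% in cKO mice. A count of 0 of 15 is near these shares. In males 12 of 15 had a value above 0, with a median log2 fold change of 0.10, where 50.3% of all genes were above 0. In females 12 of 15 were also above 0 (median 0.13), where 51.1% of all genes were. Their summed level was 2079 to 2629 CPM in Ctrl males, 2300 to 2745 in cKO males, 2256 to 2800 in Ctrl females and 2392 to 3214 in cKO females. In the mean genotype effect 2 of 15 rose, Fbln1 (0.29, edgeR adjusted p = 0.0159) and Cd248 (0.36, edgeR adjusted p = 0.0346), against 0.469% of all genes. In the mean sex effect 3 of 15 were higher in females, Pi16, Htra3 and Fbln1, against 4.02% of all genes, and the median over the list was 0.12. Their part in the results on the members was not tested.

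Set against the mean log2 CPM of these markers in the same mouse, the members kept different patterns. In males, cKO minus Ctrl was 0.32 for Bgn and 0.35 for Aspn, and lay between -0.11 and 0.16 for Dcn, Lum, Ogn, Prelp and Podn. It was 0.44 for Fmod, which has few counts. In females it was 0.01 for Bgn and -0.11 for Aspn. On this scale the genotypes overlapped in each sex for both genes. Dcn relative to the markers was lower in females by 0.36 in Ctrl and by 0.28 in cKO mice. In CPM the sexes overlapped in both genotypes, while on this scale they did not overlap in either. Prelp relative to the markers was lower in cKO females than in cKO males by 0.38, also without overlap. Lum relative to the markers was higher in females by 0.28 in Ctrl and by 0.17 in cKO mice, with overlap in both. Podn relative to the markers was higher in females by 0.63 in Ctrl and by 0.49 in cKO mice, with overlap in both. The mean of the markers was itself higher in females. It was 6.05 against 5.93 log2 CPM in Ctrl mice and 6.17 against 6.07 in cKO mice. The share of all genes without overlap on this scale was not computed. These values are a description, with no test.

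Other cell types were read from the same lists. Of 10 cardiomyocyte markers, 2 were lower in cKO males, against 0.26% of all genes, and 0 in cKO females, against 0.00651%. The 2 were Tnni3 (-0.24, edgeR adjusted p = 0.0316) and Myl3 (-0.20, edgeR adjusted p = 0.0374). Both were also lower in the mean genotype effect (Myl3 -0.17, edgeR adjusted p = 0.00965, and Tnni3 -0.17, edgeR adjusted p = 0.0168). There 0.866% of all genes were called as lower. In the sex comparison of cKO mice 2 of the 10 were higher in females, against 1.43% of all genes. These were Tnni3 (0.24, edgeR adjusted p = 0.00821) and Myl2 (0.26, edgeR adjusted p = 0.0231). Both were higher in females in the mean sex effect (0.17, edgeR adjusted p = 0.00366, and 0.20, edgeR adjusted p = 0.00795). There 4.02% of all genes were called as higher. The summed level of the list was 79050 to 88912 CPM in Ctrl males and 69033 to 82509 CPM in cKO males. Of the markers of endothelial cells (10), smooth muscle cells and pericytes (10), macrophages (10), Schwann cells (6) and blood (5), 0 passed in either genotype comparison. Over all genes, 0.443% passed in males and 0.0326% in females. In the mean sex effect 1 of these markers passed, the smooth muscle gene Acta2, higher in females (0.47, edgeR adjusted p = 0.0178). Of all genes, 7.71% passed in the mean sex effect. All 10 macrophage markers had values below 0 in that contrast (median -0.19), and none passed. Mesothelial markers, with 2 of 8 abundant enough to be tested, summed to 3.53 to 25.8 CPM, and valve and tendon markers, with 4 of 10 abundant enough to be tested, to 15.8 to 31.9 CPM. The part of these cells in the results was not tested.

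Of 10 further members of the family (Kera, Omd, Ecm2, Podnl1, Tsku, Epyc, Optc, Chad, Nyx and Nepn), 5 were abundant enough to be tested. None passed in either genotype comparison, against 0.443% of all genes in males and 0.0326% in females. Ecm2, beside Aspn on chromosome 13, was the most abundant of them, with a mean of 26.5 ± 3.90 CPM over the 6 Ctrl males and of 29.4 ± 3.93 CPM over the 7 cKO males (SD). Omd, between Aspn and Ogn, had a mean of 0.669 ± 0.337 CPM over the 6 Ctrl males (SD). Kera, next to Lum, had no count in any of 26 libraries, which allows up to 0.208 CPM in the shallowest of them. Epyc, next in the same row, had at most 6 counts in any library. The row of Dcn, Lum, Kera and Epyc thus held the most abundant member of the family in CPM and a gene with no counts. Nepn was lower in females in the mean sex effect (-0.65, edgeR adjusted p = 0.0368).

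No enzyme that builds the glycosaminoglycan chains was called. Of 28 genes for the linker, for chain growth and for sulfation, 24 were tested, and 0 passed in any of the 7 contrasts by edgeR. Over all genes, the share called ran from 0% in the interaction to 7.71% in the mean sex effect. The count of 0 is therefore not shown to be particular to these enzymes. At an unadjusted p under 0.05 there were 1 higher and 1 lower in males, against 13.2% of all genes. In the mean genotype effect there were 4, all higher, against 14.1% of all genes. The smallest p in males was that of Xylt1, which adds the first xylose to the core protein (0.37, SE 0.13, edgeR adjusted p = 0.202). The median over the 24 genes was 0.01 in males and 0.09 in females.

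Partners of these proteoglycans were read from a further list. Of 26 collagens, growth factors, receptors and proteases known to bind or process them, 25 were tested, and 2 passed in males, both higher in cKO (0.182% of all genes tested were called as higher), and 0 in females. These were Hspg2, the basement membrane proteoglycan perlecan (0.30, SE 0.06, edgeR adjusted p = 0.0272), and Col14a1, a collagen on the fibril surface (0.74, SE 0.16, edgeR adjusted p = 0.0384). In males 22 of 25 were above 0, with a median of 0.24, where 50.3% of all genes were above 0. All gene lists were chosen with earlier results of these data known, so their counts against all genes are not independent of these data. In the mean genotype effect, where 0.469% of all genes were called as higher, 4 rose: Lrp1, a receptor that takes up decorin (0.30, edgeR adjusted p = 0.0103), Hspg2 (0.22, edgeR adjusted p = 0.0119), Bmp1, the protease that cuts the biglycan propeptide (0.16, edgeR adjusted p = 0.0308), and Col14a1 (0.45, edgeR adjusted p = 0.0391). The 3 TGF-beta ligands and the receptors Tlr2 and Tlr4, through which soluble biglycan is known to signal, were not called. Their male fold changes were -0.11 for Tgfb1, 0.18 for Tgfb2, 0.08 for Tgfb3, 0.12 for Tlr2 and 0.17 for Tlr4.

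Col14a1 was also higher in females, in both genotypes. Its mean was 9.33 ± 1.20 CPM over the 6 Ctrl males and 25.8 ± 6.85 CPM over the 6 Ctrl females (SD), with no overlap of the groups; the log2 difference was 1.47 (SE 0.17, edgeR adjusted p = 4.08e-06). In cKO mice the difference was 0.90 (SE 0.15, edgeR adjusted p = 0.00159). Col1a2 and Fbn1, the latter a microfibril protein, were lower in cKO females than in cKO males, with log2 fold changes of -0.40 (edgeR adjusted p = 0.0307) and -0.55 (edgeR adjusted p = 0.0326).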

How the data were processed

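RNA was extracted from about 20 mg of left ventricle, with RNA integrity numbers of at least 7.7, and 500 ng went into each stranded poly-A library, per the labels' protocols. The values that the authors deposited for the 26 libraries are raw counts of each gene, in whole numbers. The submitters' processing notes name FastQC 0.74, cutadapt 4.6, STAR 2.7.11a, HTSeq and GRCm39. Their settings, the gene annotation and whether counting used strand are not given in the sources used here. Where gene models overlap, reads can have been dropped or reassigned.

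The 8 genes and all gene lists were chosen with earlier results of these data known. The tests used edgeR 4.0.16 under R 4.3.3: filterByExpr with a minimum count of 10, TMM scaling, 4 group means in 1 fit to all 26 libraries, robust quasi-likelihood F tests, and Benjamini-Hochberg adjustment over 15357 genes. Calls are at an adjusted p under 0.05. Confidence intervals are 95%. CPM use TMM-scaled totals, and log2 CPM a prior count of 2. No label names litters or processing batches. Alternatives used DESeq2 1.42.0, limma 3.58.1 (voom), DESeq2 size factors, other filters, a replicate block, a spline correction for transcript length and GC content (98.3% of genes matched in GENCODE M21), fits without each mouse, and a fit without Ctrl males 3 and 6. The main edgeR fit, DESeq2, limma voom, the block and the length and GC correction were run on simulated counts with known fold changes. These counts held no length, GC or replicate effect, so removal of such an effect was not tested. The other alternatives were not simulated. Correlations were tested with 100000 permutations within groups, two-sided. In 72 pairs of libraries of a group, counts differed by at least 7.33 times the sampling noise (chi-square per degree of freedom), so all were kept.

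Genes named are the 8 members, genes of the lists with an adjusted p under 0.05 in any contrast or the smallest p of a list without one, and the 3 genes most alike to each member. Scp2, Ecm2, Omd, Kera, Epyc, the TGF-beta ligands, Tlr2 and Tlr4 are given as neighbours or partners; these were chosen outside that rule, with their values known.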

Additional observations from a re-analysis of the deposited data

Results flagged for a closer look

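In 32 sets of values (8 members in 4 groups), 1 mouse stood apart from the rest of its group. Lum was at 82.6 CPM in cKO male 2, while the other 6 cKO males lay between 47.4 and 62.4 CPM. Chance alone marks about 1 in 20 such sets. The same mouse was also the highest cKO male for Dcn, Bgn, Ogn and Aspn.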

How the results depend on the processing

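Several of the members' calls lie near the threshold, while the directions of the members mostly held. Podn in the mean sex effect was called in every refit (adjusted p by edgeR, DESeq2 or limma voom at most 0.00450). Of 2037 refitted values of a member in a contrast, 1901 kept direction and side of the threshold, 56 lost a call, 29 gained one and 51 changed sign. In 43 of 56 combinations of member and contrast no refit changed the sign. The number of members called for cKO against Ctrl in males was 0, and 2 with DESeq2, 2 with limma voom, 1 without robust estimation and 1 with a filter at a mean of 1 CPM (0 to 1 without each mouse). For females against males it was 0 in Ctrl, and 1 with DESeq2, limma voom or no robust estimation (0 to 1 without each mouse). In cKO it was 1, and 2 with DESeq2, limma voom, no robust estimation, a mean of 1 CPM or only the compared groups, and 0 with no filter (0 to 2 without each mouse). For the mean genotype effect it was 1, and 0 with no filter (0 to 1 without each mouse). For the mean sex effect it was 3, and 1 with no filter, and 2 with the length and GC correction, with that correction and the block, and without Ctrl males 3 and 6 (2 to 4 without each mouse).

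No label says that mice share a replicate number for a reason, and in none of the 6 pairs of groups did all same-numbered mice have deviations correlated over 0.1: 3 of 6 did for Ctrl and cKO females (mean 0.118, against -0.019 for other numbers), and 0 or 1 in each of the other 5 pairs of groups (means from -0.054 to 0.030). The mice were therefore not treated as paired. With a replicate block, Bgn was no longer called in the mean genotype effect (0 members, edgeR adjusted p = 0.0676). Podn in cKO mice was at an edgeR adjusted p of 0.0613, and Aspn was called there in its place (edgeR adjusted p = 0.0227). With the block and a length and GC correction together, 0 members were called in the mean genotype effect (Bgn, edgeR adjusted p = 0.0524) and 0 for sex in cKO mice (Podn, edgeR adjusted p = 0.0766).

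The sign changes fell on differences near 0 and on pairs with Fmod. With the length and GC correction, Dcn was at -0.069 in males (-0.087 with the block) and at -0.0013 in the mean genotype effect (-0.020 with the block). Ogn was then at -0.011 in males, 0.065 for sex in cKO mice (0.061 with the block) and -0.029 in the mean genotype effect (-0.0083 with the block), and at -0.014 (limma voom) and -2.53e-06 (no filter) in the mean sex effect. Aspn in females was at 0.011 with limma voom, and the interaction of Podn at 0.010 without Ctrl males 3 and 6. Without each mouse, Dcn in males ranged from -0.042 to 0.092. Ogn ranged from -0.026 to 0.076 in males, -0.069 to 0.020 in females, -0.10 to 0.0024 in the interaction, -0.025 to 0.080 for sex in Ctrl, -0.059 to 0.022 for sex in cKO, -0.025 to 0.027 in the mean genotype effect and -0.024 to 0.029 in the mean sex effect. Aspn ranged from -0.079 to 0.12 in females and -0.11 to 0.12 for sex in Ctrl, Fmod from -0.050 to 0.27 for sex in cKO, and the interaction of Podn from -0.21 to 0.028. Without 2 mice, r was -0.076 for Lum and Fmod and -0.10 for Fmod and Aspn. The ratio of Dcn to Bgn was 1.55 without division by length and 0.878 with the longest transcripts, as their lengths differ. Other causes were not tested.

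Over all genes, calls in males ranged from 4 to 122 without each mouse and from 7 to 399 under the other settings. Depth limits Fmod, with at most 19 counts per library.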

Other observations

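Comp, cartilage oligomeric matrix protein, a collagen-binding protein of tendon and fibrotic matrix, rose with genotype in the mean over both sexes. It was the 1 of 4 tested valve and tendon markers called there, where 0.469% of all genes were called as higher. Another of the 4 was lower at an unadjusted p under 0.05 (edgeR). Comp was at 0.931 to 3.61 CPM in Ctrl males and at 3.28 to 7.05 CPM in cKO males. In females it was at 1.02 to 3.59 CPM in Ctrl and at 2.04 to 6.35 CPM in cKO mice. The mean genotype effect was 0.98 on the log2 scale (SE 0.21, edgeR adjusted p = 0.0168), against 1.24 in males (edgeR adjusted p = 0.0505) and 0.72 in females (edgeR adjusted p = 0.932). The mean sex effect, a contrast added after the values were seen, was 0.49 for Cytl1, a secreted cytokine-like protein (SE 0.12, edgeR adjusted p = 0.00900). Of all genes, 4.02% were called as higher in females there. Cytl1 was the 1 of the 4 tested valve and tendon markers with a mean sex effect above 0. The median of the 4 was -0.17, and 2 were lower in females at an unadjusted p under 0.05 (edgeR).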
